A study of Mus musculus with 2 samples.

Results

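The expression of 10 genes of blood-brain barrier endothelium was followed in the newborn mouse neural tube. The genes were Cldn5, Ocln, Tjp1, Pecam1, Cdh5, Slc2a1, Mfsd2a, Abcb1a, Abcg2 and Slco1a4. They were chosen by symbol from what is known of barrier endothelium, with earlier results of these data known. Each matched 1 of the 43346 gene rows. Total RNA was sequenced from the neural tubes of pup 2 and pup 1, mice of the B6NCrl strain at postnatal day 0, with 1 tube and 1 library per pup. Both pups came from 1 litter, their sex was not collected, and neither carried a treatment or an engineered allele in the labels. They form 1 group with n = 2, so there is no contrast between conditions and no p-value was computed. The labels describe separate pups with separate biological replicate numbers but also give both libraries 1 shared donor entry, so that an SD with n = 2 includes spread between animals rests on the pup labels alone.

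The blood-brain barrier is a property of the endothelial cells that line the vessels of the brain and spinal cord. Tight junctions close the gaps between these cells, few vesicles cross them, carriers bring glucose and lipids to the nervous tissue, and efflux pumps return drugs and metabolites to the blood. Endothelial Wnt signalling and contact with pericytes and astrocyte endfeet are known to induce and maintain this state. In a library of whole tissue, fewer cells of a type and less RNA per cell cannot be told apart.

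Gene rows held 40003490 counts in pup 2 and 26916914 in pup 1, after rounding of the deposited expected counts. Levels are given as TPM, the deposited abundance per transcript length, which sums to a fixed total per library. Each gene also has deposited lower and upper TPM bounds, here called its TPM interval, which cover estimation error within 1 library and not the spread between pups. Differences are log2 ratios of TMM-scaled counts, pup 2 over pup 1, with an exact binomial 95% interval that covers counting error only. A positive log2 ratio means more in pup 2, relative to the bulk of genes. Over the 18105 genes whose mean count reached 10, TPM intervals did not overlap between the pups for 18.6%. Pup 2 was lower for 12.4% and higher for 6.26%, and 7.90% were past 1.5-fold in either direction. Over the 13545 genes whose mean count reached 100, intervals did not overlap for 23.6%, a share that was not split by direction. Nearly all genes of the carrier, caveolar, pericyte and fibroblast lists below had such counts, so 12.4% and 6.26% may be low backgrounds for them.

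Endothelial genes that are not among the 10 were measured as well. All 16 of 16 pan-endothelial genes reached a TPM of 1 in both pups. The highest were Egfl7, a secreted endothelial factor, at 56.5 TPM in pup 2 and 63.0 in pup 1, and Ly6c1, a surface protein of vessel endothelium, at 49.6 and 34.8 TPM. The lowest was the ETS transcription factor gene Erg, at 1.05 TPM in pup 2 and 2.49 in pup 1. Of genes of neural cells, the astrocyte gene Gfap stood at 236 TPM in pup 2 and 201 in pup 1. Stmn2, the highest of 6 neuron genes chosen after seeing the data, stood at 1120 and 1096 TPM. These levels are given as a description and not as a check of the labels.

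Of the 10 barrier genes, 9 reached a TPM of 1 in both pups, where 35.5% of all gene rows did. Those rows include noncoding genes, while the 10 are protein-coding genes picked for endothelium. The share over protein-coding genes alone was not computed. Slco1a4 was the exception, with 1.78 TPM in pup 2 and 0.73 in pup 1. Cldn5 was highest and Slco1a4 lowest in each pup, and the mean TPM of the highest was 92.9 times that of the lowest. The order by mean TPM ran Cldn5, Slc2a1, Mfsd2a, Abcg2, Tjp1, Pecam1, Ocln, Cdh5, Abcb1a and Slco1a4. Leaving TPM intervals aside, the TPM values of Ocln in the pups overlapped with those of both its neighbours, Pecam1 and Cdh5. The TPM values of every other pair of neighbours did not overlap. TPM intervals of some of these pairs did. In pup 2 those of Mfsd2a (24.7 to 28.3) and Abcg2 (23.8 to 28.0) overlapped, as did those of Tjp1 (9.21 to 11.6) and Pecam1 (8.47 to 10.0). In pup 1 the interval of Abcb1a (2.89 to 9.12) overlapped with that of Cdh5 (7.44 to 8.77). With the length of the leading transcript, mean TPM was lower for Tjp1 (8.91) than for Pecam1 (9.92). Summed over the 10 genes, TPM was 236.85 in pup 2 and 276.32 in pup 1, and Cldn5 alone supplied 43.6% and 47.0% of that sum.

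**Figure D1:**
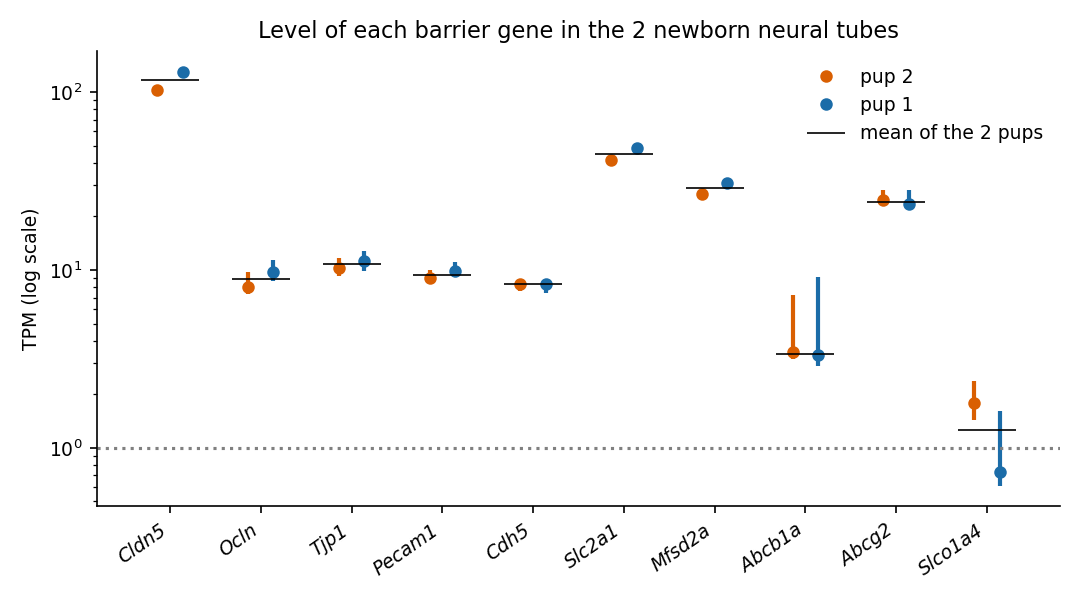
TPM of the 10 barrier genes on a log axis, in order of role, with pup 2 as the left point and pup 1 as the right point, vertical lines for the deposited TPM intervals, horizontal bars for the mean of both pups, and a dotted line at a TPM of 1. Cldn5 stands highest at 103 and 130 TPM, and Slco1a4 is the gene whose points lie on both sides of the dotted line.

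Of the 3 tight junction genes among the 10, Cldn5 was the highest. Cldn5 encodes claudin-5, the claudin that seals brain endothelial junctions against small molecules. It had 103 TPM in pup 2 (TPM interval 97.8 to 104.4, 3607 counts) and 130 TPM in pup 1 (121 to 130.4, 2948 counts). The mean was 117 ± 18.9 TPM (SD, n = 2), above 89.0% of detected genes in pup 2 and 91.4% in pup 1. Cldn5 was lower in pup 2 with TPM intervals that did not overlap, at a log2 ratio of -0.26 (-0.33 to -0.19).

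Cldn5 is a gene with a single annotated transcript, Cldn5-201, on the plus strand at chr16:18776847-18778262 (GRCm38, the same build as mm10). Its RefSeq promoter window, the 250 bases upstream of the start at chr16:18776597-18776846, is shown because it belongs to the highest of the 10 genes, with any match to the motifs described further on in capitals.
Cldn5 promoter: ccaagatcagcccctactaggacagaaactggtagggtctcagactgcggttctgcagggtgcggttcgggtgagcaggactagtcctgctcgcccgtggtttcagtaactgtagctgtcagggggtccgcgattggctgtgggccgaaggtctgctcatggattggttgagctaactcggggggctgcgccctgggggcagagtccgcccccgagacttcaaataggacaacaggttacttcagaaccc
The window holds no capitals: none of the 5 motifs searched on both strands was found in it, and its GC content is 59.6%.

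Ocln encodes occludin, a membrane protein of the junction strand. It stood at 8.02 TPM in pup 2 (TPM interval 7.37 to 9.77, 619 counts) and 9.71 TPM in pup 1 (8.67 to 11.4, 467 counts), a mean of 8.87 ± 1.20 TPM (SD, n = 2). The TPM intervals overlapped, and the counting interval of the log2 ratio of -0.15 held 0 (-0.32 to 0.03). Cldn5 exceeded Ocln 12.9-fold in pup 2 and 13.4-fold in pup 1 by TPM. The gene spans chr13:100496507-100552718 on the minus strand.

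Ocln was divided almost evenly among 3 protein-coding transcripts. Ocln-201 took 31.4% of its TPM in pup 2 and 34.8% in pup 1, Ocln-202 took 36.1% and 29.8%, and Ocln-203 took 29.6% and 35.4%. Ocln-201 and Ocln-202 share a coding length of 1563 bases and differ outside it, first exons included. Ocln-203 lacks exons of 673 and 117 bases and has a coding length of 816 bases. The leading transcript was Ocln-202 in pup 2 and Ocln-203 in pup 1, but the TPM interval of each of the 3 transcripts overlapped between the pups. Whether transcript use differed between the pups was not tested.

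Tjp1 encodes ZO-1, the scaffold that ties claudins and occludin to actin. Tjp1 had 10.2 TPM in pup 2 (TPM interval 9.21 to 11.6, 1437 counts) and 11.3 TPM in pup 1 (9.84 to 12.9, 1077 counts), a mean of 10.8 ± 0.742 TPM (SD, n = 2). The TPM intervals overlapped, while the counting interval of the log2 ratio, -0.14 (-0.25 to -0.02), lay just below 0. Its relative Tjp3, known mainly from epithelia, was at 0.93 TPM in pup 2 and 1.39 in pup 1.

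Tjp1 transcripts differ by an exon that is known to separate cell types. ZO-1 exists with and without an 80-residue stretch called the alpha domain, and the form without it is known from endothelial cells, while most epithelia make the form with it. Tjp1-202 carries a coding exon of 240 bases that Tjp1-201 lacks, at chr7:65314093-65314332 on the minus strand (GRCm38, GENCODE M21). The exon is shown because its presence separates these forms.
Tjp1 exon: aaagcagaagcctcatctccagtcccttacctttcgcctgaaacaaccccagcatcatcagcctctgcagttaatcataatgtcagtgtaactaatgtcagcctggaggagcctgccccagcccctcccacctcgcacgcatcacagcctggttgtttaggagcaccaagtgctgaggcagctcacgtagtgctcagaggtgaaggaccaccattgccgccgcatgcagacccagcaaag
Tjp1-202 took 68.5% of Tjp1 TPM in pup 2 and 70.65% in pup 1, and Tjp1-201 took 6.24% and 8.29%. Of the sum of both, the transcript with the exon held 91.6% in pup 2 and 89.4% in pup 1. Tjp1-202 has 7049 bases and Tjp1-201 has 6102, so they differ outside the exon too. The shares are thus of whole transcripts and not of reads over the exon. Most of the remaining Tjp1 TPM, 25.25% in pup 2 and 21.1% in pup 1, was assigned to Tjp1-203, a short transcript with no coding sequence that held 41.2 and 24.6 expected counts. Which cells of the tube made the form with the exon was not tested.

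Other junction genes, taken as a list, were detected at a TPM of 1 in both pups for 15 of 16. Ctnnb1, beta-catenin, was highest at 165 TPM in pup 2 and 172 in pup 1, followed by Cdh2, N-cadherin, at 43.7 and 51.4 TPM. Cldn3, another claudin, stood at 2.50 TPM in pup 2 and 2.85 in pup 1, and Cldn5 exceeded it 41.3-fold and 45.6-fold. Cldn12 was closer at 10.9 TPM in pup 2 and 10.5 in pup 1. Cldn11, a claudin of arachnoid and myelin, was closest at 83.2 TPM in pup 2 and 40.9 in pup 1. Of the 16 genes, 0 had TPM intervals that did not overlap with a higher value in pup 2, against 6.26% of all genes. Of the same 16, 2 had a lower one, against 12.4%, and none was past 1.5-fold, against 7.90%.

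The adhesion genes Pecam1 and Cdh5 mark endothelium in general rather than the barrier. Cdh5 encodes VE-cadherin, the cadherin of endothelial adherens junctions. It had 8.37 TPM in pup 2 (TPM interval 7.66 to 8.75, 864 counts) and 8.37 TPM in pup 1 (7.44 to 8.77, 561 counts), with a log2 ratio of 0.07 (-0.09 to 0.22). The pups thus gave equal TPM for Cdh5, which has a single transcript at chr8:104101625-104144511 on the plus strand.

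Pecam1 encodes CD31, an adhesion receptor of endothelial cells that platelets and leukocytes also carry. It stood at 9.02 TPM in pup 2 (TPM interval 8.47 to 10.0, 745 counts) and 9.81 TPM in pup 1 (9.08 to 11.1, 525 counts), a mean of 9.42 ± 0.559 TPM (SD, n = 2). The intervals overlapped and the log2 ratio was -0.05 (-0.21 to 0.11). Pecam1 over Cdh5 was 1.08 in pup 2 and 1.17 in pup 1. Blood cell genes were present beside it: the platelet chemokine gene Pf4 had 84.6 TPM in pup 2 and 60.0 in pup 1, and 7 of 10 platelet and leukocyte genes reached a TPM of 1 in both pups, with the leukocyte gene Laptm5 at 42.45 and 42.5 TPM and Cxcr2 lowest at 0.12 and 0.10 TPM. Tissue macrophages are known to make Pf4 and Laptm5 too, and other genes of that list were scarcer: the platelet genes Ppbp and Gp9 had 0.42 and 0.11 TPM in pup 2, against 0.59 and 0.73 TPM in pup 1, and the leukocyte gene Ptprc had 1.24 TPM in pup 2 and 1.38 in pup 1. Their part in the Pecam1 level was not tested.

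Most of the estimated Pecam1 TPM fell on a transcript with a shortened cytoplasmic tail. Skipping of tail exons of this receptor is known in mouse endothelium. Pecam1-203 took 61.1% of Pecam1 TPM in pup 2 and 58.7% in pup 1. It lacks a 57-base exon at chr11:106671742-106671798 and a 23-base exon at chr11:106662002-106662024 (minus strand, GRCm38, GENCODE M21), both of which Pecam1-204 contains. The exons are shown because their use separates these transcripts.
Pecam1 57-base exon: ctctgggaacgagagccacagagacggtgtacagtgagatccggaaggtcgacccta
Pecam1 23-base exon: atctcatggaaaacagatactct
Pecam1-202, with the longer exon only, took 22.0% in pup 2 and 19.2% in pup 1, and Pecam1-204, with both, took 6.18% and 5.71%. Pecam1-207 has both and lacks a 303-base coding exon further upstream. It took 7.86% in pup 2 and 13.9% in pup 1. Over these 4 transcripts the 57-base exon was in 37.2% of TPM in pup 2 and 39.8% in pup 1, and the 23-base exon in 14.5% and 20.1%. The TPM intervals of each transcript overlapped between the pups. They were wide, at 3.44 to 6.73 in pup 2 and 2.80 to 6.59 in pup 1 for Pecam1-203. In pup 1 that of Pecam1-203 overlapped with that of Pecam1-202 (0.685 to 4.08), so the shares are uncertain.

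**Figure D2:**
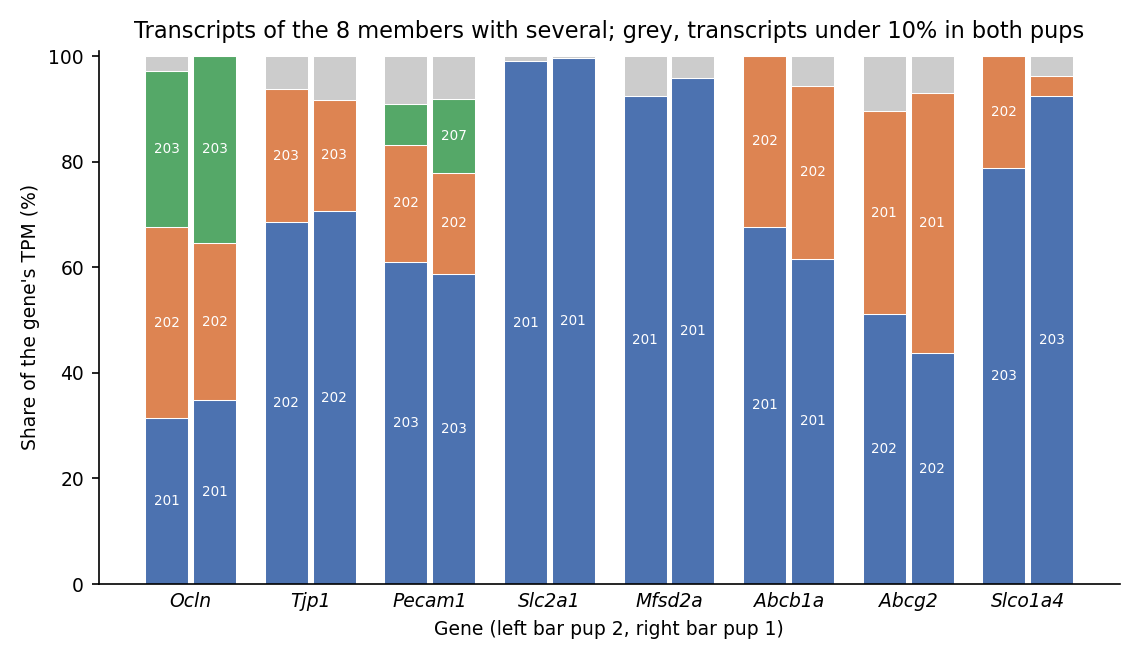
Share of each gene's TPM by transcript, in percent, for the 8 barrier genes with several annotated transcripts, with pup 2 as the left bar and pup 1 as the right bar of each pair. Numbers in the bars are the transcript numbers, and transcripts under 10% in both pups are in grey. Slc2a1 and Mfsd2a are nearly a single transcript, and Ocln is split in 3.

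Of the nutrient carriers, Slc2a1 was second among the 10 genes. It encodes GLUT1, the glucose transporter of brain endothelium, which astrocytes and mouse erythroid precursors make too. Slc2a1 had 41.5 TPM in pup 2 (TPM interval 39.4 to 42.7, 2746 counts) and 48.7 TPM in pup 1 (45.5 to 49.7, 2100 counts), a mean of 45.1 ± 5.06 TPM (SD, n = 2). It was lower in pup 2 with TPM intervals that did not overlap, at a log2 ratio of -0.17 (-0.25 to -0.08). Slc2a1-201 held 99.0% of its TPM in pup 2 and 99.6% in pup 1.

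The neuronal glucose transporter gene Slc2a3 reached the same level as Slc2a1. It had 42.0 TPM in pup 2 and 45.0 in pup 1, so that Slc2a1 over Slc2a3 was 0.988 and 1.08. Haemoglobin genes also moved in the direction of Slc2a1: Hba-a2, the highest of the erythroid list, had 1287 TPM in pup 2 and 1702 in pup 1, followed by Hbb-bs at 751 and 945 TPM, and Hemgn was lowest at 0.00 and 0.03 TPM. All 7 erythroid genes whose mean count reached 10 had a negative log2 ratio, with a median of -0.33, and the summed TPM of the 8 genes measured was 2886 in pup 2 and 3738 in pup 1. Their part in the Slc2a1 difference was not tested. The gene spans chr4:119108711-119137983 on the plus strand, and the antisense gene Gm12868 that overlaps its end held 2.08 expected counts in pup 2 and 1.06 in pup 1.

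Mfsd2a encodes the carrier of lysophosphatidylcholine-bound omega-3 lipid and is known to keep vesicle traffic low in brain endothelium. It stood at 26.6 TPM in pup 2 (TPM interval 24.7 to 28.3, 1359 counts) and 30.9 TPM in pup 1 (28.4 to 32.8, 1055 counts), a mean of 28.7 ± 3.02 TPM (SD, n = 2). The TPM intervals missed each other narrowly, and the log2 ratio was -0.19 (-0.31 to -0.07). Mfsd2a-201 held 92.4% of its TPM in pup 2 and 95.8% in pup 1. Its relative Mfsd2b, a sphingolipid exporter of red cells and platelets, was at 0.96 TPM in pup 2 and 1.15 in pup 1, so Mfsd2a was 27.7 and 26.8 times as abundant. The gene spans chr4:122946850-122961188 on the minus strand.

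Most genes of vesicle traffic and fenestrae had a positive log2 ratio. Of 8 such genes, 7 did, and the median was 0.29, where the median over all genes was 0.00. For Cavin2 (0.02) and Plvap (0.01) the ratio was near 0, its counting interval held 0, and TPM was lower in pup 2. Of the 8, 3 had TPM intervals that did not overlap with the higher value in pup 2, against 6.26% of all genes. For 1, the clathrin heavy chain gene Cltc, they did not overlap with the lower value in pup 2, against 12.4%. All 8 had mean counts above 100, and for such genes the share by direction was not computed. Cltc had 95.2 TPM in pup 2 and 109 in pup 1. Cav1, the main caveolin of endothelium and also made by fibroblasts and pericytes, had 34.9 TPM in pup 2 and 28.9 in pup 1, and the caveolar coat gene Cavin3 had 82.8 and 67.6 TPM. Mfsd2a over Cav1 was 0.763 in pup 2 and 1.07 in pup 1. Ehd2, which stabilises caveolae at the membrane, was the lowest of the list at 6.29 TPM in pup 2 and 4.61 in pup 1.

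Plvap, which forms the diaphragms of leaky fenestrated vessels, was close to equal in both pups at 12.35 TPM in pup 2 and 12.9 in pup 1, and Cldn5 exceeded it 8.36-fold and 10.1-fold. Fibroblast genes of the arachnoid and meninges moved with the caveolar genes. All 10 of 10 had a positive log2 ratio, and their summed TPM was 3204 in pup 2 and 1742 in pup 1. TPM intervals did not overlap for 9 of them, all higher in pup 2, against 6.26% of all genes. All 10 had mean counts above 100, and for such genes the share by direction was not computed. Ptgds, a prostaglandin synthase of these membranes, had 2190 TPM in pup 2 and 922 in pup 1, Igfbp2 had 339 and 309 TPM, and Dpp4 was lowest at 3.49 and 2.21 TPM. The part of meningeal tissue in the caveolar difference was not tested.

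Other barrier carriers and receptors were all detected, 18 of 18. Slc3a2, the heavy chain of the large amino acid transporter, had 84.7 TPM in pup 2 and 88.6 in pup 1, and Lrp1, a receptor that clears ligands across the barrier and is also made by neurons and glia, had 69.1 and 89.2 TPM. Slc19a3, a thiamine transporter, was lowest at 1.05 and 1.14 TPM. A negative log2 ratio was found for 12 of the 18, and the median was -0.16. Of the 18, 8 had TPM intervals that did not overlap with the lower value in pup 2, against 12.4% of all genes. For 1 the higher value was in pup 2, against 6.26%. All of the 18 but Slc19a3 had mean counts above 100, and for such genes the share by direction was not computed.

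Of the efflux pumps, Abcg2 was the abundant one and Abcb1a the scarce one. Abcg2 encodes BCRP, a half-transporter that pumps drugs and urate. It had 24.6 TPM in pup 2 (TPM interval 23.8 to 28.0, 1355 counts) and 23.6 TPM in pup 1 (22.8 to 28.0, 873 counts), a mean of 24.1 ± 0.735 TPM (SD, n = 2). The TPM intervals overlapped, and the log2 ratio was 0.08 (-0.04 to 0.20). Abcg2 was 7.16 times as abundant as Abcb1a in pup 2 and 7.13 times in pup 1.

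Abcg2 used alternative first exons in nearly equal parts. Abcg2-202 took 51.1% of its TPM in pup 2 and 43.8% in pup 1, and Abcg2-201 took 38.4% and 49.25%, so the leading transcript differed. The TPM intervals of Abcg2-202, 9.94 to 14.1 in pup 2 and 7.04 to 12.5 in pup 1, overlapped, as did those of Abcg2-201, 7.45 to 10.9 and 8.78 to 13.5. Both transcripts have a coding length of 1971 bases. GENCODE M21 gives Abcg2-201 a length of 5717 bases where the deposited tables have 2492, so the annotation of this transcript changed between versions. The RefSeq promoter windows upstream of these first exons, each of 250 bases on the plus strand, are shown because they belong to the alternative starts.
Abcg2 promoter at chr6:58596422-58596671: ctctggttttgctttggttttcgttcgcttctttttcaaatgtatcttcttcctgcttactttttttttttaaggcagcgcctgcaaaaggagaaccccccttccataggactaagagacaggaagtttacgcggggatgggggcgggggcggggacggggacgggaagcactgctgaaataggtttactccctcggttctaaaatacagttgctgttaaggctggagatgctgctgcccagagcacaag
Abcg2 promoter at chr6:58640296-58640545: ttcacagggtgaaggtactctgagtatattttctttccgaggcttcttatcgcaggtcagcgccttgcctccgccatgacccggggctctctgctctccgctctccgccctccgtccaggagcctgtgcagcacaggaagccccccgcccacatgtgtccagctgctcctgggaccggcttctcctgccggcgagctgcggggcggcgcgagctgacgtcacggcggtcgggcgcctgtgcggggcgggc
The first of these windows lies before the start of Abcg2-201 and has a GC content of 50%, counting 1 base that GENCODE M21 places in its first exon. The other lies before Abcg2-202 and has a GC content of 67.6%. Neither holds any of the 5 motifs, so neither has capitals.

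Abcb1a encodes P-glycoprotein, the best known drug pump of rodent brain capillaries. It had 3.44 TPM in pup 2 (TPM interval 3.15 to 7.26, 380 counts) and 3.31 TPM in pup 1 (2.89 to 9.12, 222 counts), a mean of 3.375 ± 0.0919 TPM (SD, n = 2), with a log2 ratio of 0.22 (-0.02 to 0.47). The TPM lay near the lower end of each interval, and the deposited posterior mean TPM was higher, at 4.72 in pup 2 and 5.28 in pup 1. A transcript of 129 bases, Abcb1a-204, had 0 expected counts in both pups but TPM intervals that reached 3.66 in pup 2 and 5.57 in pup 1. The protein-coding Abcb1a-201 held 67.7% of TPM in pup 2 and 61.6% in pup 1, and a retained-intron transcript, Abcb1a-202, held 32.3% and 32.7%. On protein-coding transcripts alone Abcb1a had 2.33 TPM in pup 2 and 2.04 in pup 1.

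The paralog Abcb1b, which codes for a second mouse P-glycoprotein, stood at 0.77 TPM in pup 2 and 0.64 in pup 1, so Abcb1a over Abcb1b was 4.47 and 5.17. The 2 genes are near copies, so the division of reads between them by the authors' estimation is uncertain. Abcb4, a phospholipid exporter of the same family, had 0.73 TPM in pup 2 and 0.41 in pup 1. Among other ABC genes 6 of 8 were detected in both pups, led by Abcc5 at 57.5 TPM in pup 2 and 78.8 in pup 1 and Abcg1 at 23.4 and 23.5 TPM, with Abcc6 lowest at 0.62 and 0.34 TPM. Abcb1a spans chr5:8660077-8748575 on the plus strand and Abcg2 chr6:58584523-58695676 on the plus strand.

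Slco1a4 was the scarcest of the 10 genes and the one that differed most between the pups. It encodes OATP1A4, a carrier of organic anions that is known from rodent brain capillaries. Slco1a4 had 1.78 TPM in pup 2 (TPM interval 1.44 to 2.37, 144 counts) and 0.73 TPM in pup 1 (0.61 to 1.62, 44.6 expected counts), a mean of 1.26 ± 0.742 TPM (SD, n = 2). The log2 ratio of 1.10 (0.63 to 1.64), a 2.14-fold higher value in pup 2, was the only one of the 10 past 1.5-fold. Over all 18105 genes whose mean count reached 10, 7.90% were past 1.5-fold in either direction, so 1 of 10 is near the background. The TPM intervals of the gene overlapped, and the posterior mean TPM of 1.89 in pup 2 and 1.08 in pup 1 placed both pups above 1.

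The main transcript of Slco1a4 held most of its reads. Slco1a4-203 took 78.7% of TPM in pup 2 and 92.4% in pup 1, and its own TPM intervals, 1.10 to 1.58 in pup 2 and 0.327 to 0.786 in pup 1, did not overlap. Slco1a4-202, of 622 bases, took 21.3% in pup 2 on 5.26 expected counts and 3.83% in pup 1 on 0.25. The gene lies at chr6:141805440-141856199 on the minus strand among near paralogs, of which Slco1a5 had 0.40 TPM in pup 2 and 0.19 in pup 1, and Slco1a1 had 0.01 and 0.00 TPM. Slco1a5 had a log2 ratio of 1.16 (0.10 to 2.79) on 26 expected counts in pup 2 and 7.42 in pup 1. Of the 13 near paralogs of the 10 genes, 5 reached a TPM of 1 in both pups, and their median log2 ratio was -0.02. Reads that these paralogs share were divided by the authors' estimation, so the values are uncertain. The thyroid hormone carrier gene Slco1c1, of brain endothelium and astrocytes, was far more abundant at 22.5 TPM in pup 2 and 23.9 in pup 1, with Slco1a4 over Slco1c1 at 0.0793 and 0.0306.

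The RefSeq promoter window of Slco1a4, the 250 bases upstream at chr6:141856221-141856470 on the minus strand, is shown because the gene is the lowest of the 10 and has the largest ratio between the pups.
Slco1a4 promoter: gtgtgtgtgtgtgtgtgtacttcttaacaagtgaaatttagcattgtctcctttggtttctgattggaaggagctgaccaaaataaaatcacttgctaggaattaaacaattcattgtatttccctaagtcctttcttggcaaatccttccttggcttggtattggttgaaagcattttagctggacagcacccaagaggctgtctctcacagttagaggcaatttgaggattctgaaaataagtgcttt
It holds none of the 5 motifs and has a GC content of 39.2%, against a median of 61.6% over the 11 windows available.

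RefSeq promoter windows were available for 8 of the 10 genes, 11 windows in all. The 5 short motifs were searched on both strands in the 250 upstream bases: CCGGAA of ETS factors, ACAAAG of SOX factors, CTTTGA of TCF/LEF factors, ACGTG of hypoxia-inducible factors and the TATA box TATAAA. The ETS letters were in 1 window, of Ocln, and in 12.02% of all 32817 windows. The SOX letters were in 1, of Abcb1a, and in 16.5% of all. The TCF/LEF letters were in 2, of Mfsd2a and Abcb1a, and in 13.8% of all. The hypoxia letters were in 2, of Slc2a1 and Mfsd2a, and in 16.6% of all. The TATA letters were in 0, and in 12.4% of all. The Abcb1a window, at chr5:8566841-8567090, belongs to a RefSeq start outside the GENCODE M21 span of the gene, chr5:8660077-8748575. Its SOX and TCF/LEF letters are thus not next to the start of that span. All of these are matches of letters in 1 window and not sites.

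For 9 of the 10 genes the log2 ratio lay within the middle range of all genes. The median log2 ratio of the 10 was -0.09, and over all 18105 genes whose mean count reached 10 the median was 0.00, with -0.30 and 0.34 as the 10th and 90th percentiles. Of the 10 genes, 3 had TPM intervals that did not overlap between the pups, Cldn5, Slc2a1 and Mfsd2a, against 18.6% of all genes. These 3 had mean counts above 100, and of the 13545 genes that reached 100 the share was higher, at 23.6%. All 3 were lower in pup 2, against 12.4% of all genes, and 0 were higher, against 6.26%. By counting intervals of the log2 ratio, which cover counting error only, 4 lay below 0, 1 above and 5 held 0. The share over all genes was not computed for these intervals, so the counts cannot be set against a background. The median CV (the SD as a share of the mean) was 8.71% over the 10 genes and 6.26% over all genes whose mean count reached 100. Slco1a4, with a CV of 59.2%, does not reach that count. The median over the other 9 is the 6.90% of Tjp1.

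**Figure D3:**
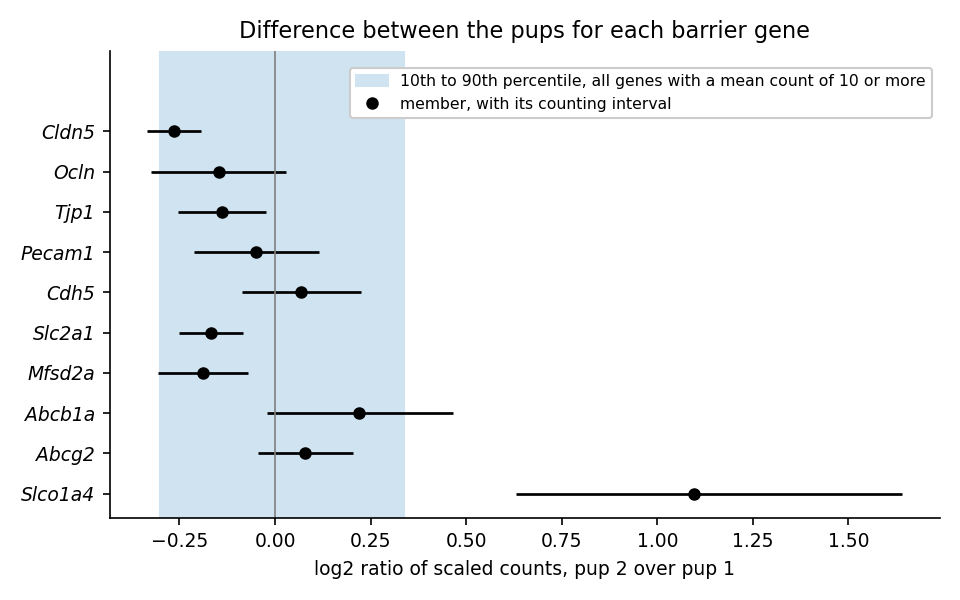
Log2 ratio of scaled counts, pup 2 over pup 1, for the 10 barrier genes in order of role, with horizontal lines for the exact binomial 95% counting intervals and a shaded band from the 10th to the 90th percentile of all 18105 genes whose mean count reached 10. Points for 9 genes lie inside the band, from -0.26 to 0.22, and Slco1a4 lies outside it at 1.10.

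Each of the 10 genes was also set against general endothelial genes of the same library. The geometric mean of Kdr, Flt1, Tek, Tie1, Esam, Emcn, Eng and Erg was 8.09 TPM in pup 2 and 9.97 in pup 1. Relative to it, Cldn5 stood at 12.8 in pup 2 and 13.0 in pup 1, Slc2a1 at 5.13 and 4.89, Mfsd2a at 3.29 and 3.10, and Abcg2 at 3.04 and 2.37. Ocln, Tjp1, Pecam1 and Cdh5 lay between 0.840 and 1.26 in both pups, Abcb1a at 0.425 in pup 2 and 0.332 in pup 1, and Slco1a4 at 0.220 and 0.0732. Log2 ratios on this scale were taken from deposited TPM with 0.1 added, not from TMM-scaled counts. Their median over the 10 genes was 0.17, where deposited TPM without the endothelial scale gave -0.13. The sign of 5 genes, Ocln, Tjp1, Pecam1, Slc2a1 and Mfsd2a, turned positive, while Cldn5 stayed negative at -0.03. Erg, the scarcest of the 8 with 66 counts in pup 2 and 85 in pup 1, decided 3 of these signs. The geometric mean differed between the pups by -0.30 on the log2 scale, pup 2 over pup 1, and by -0.17 without Erg. Without Erg the median log2 ratio was 0.04, and only Tjp1 (0.03) and Pecam1 (0.05) turned positive. Ocln (-0.11), Slc2a1 (-0.06), Mfsd2a (-0.05) and Cldn5 (-0.17) then stayed lower in pup 2.

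**Figure D4:**
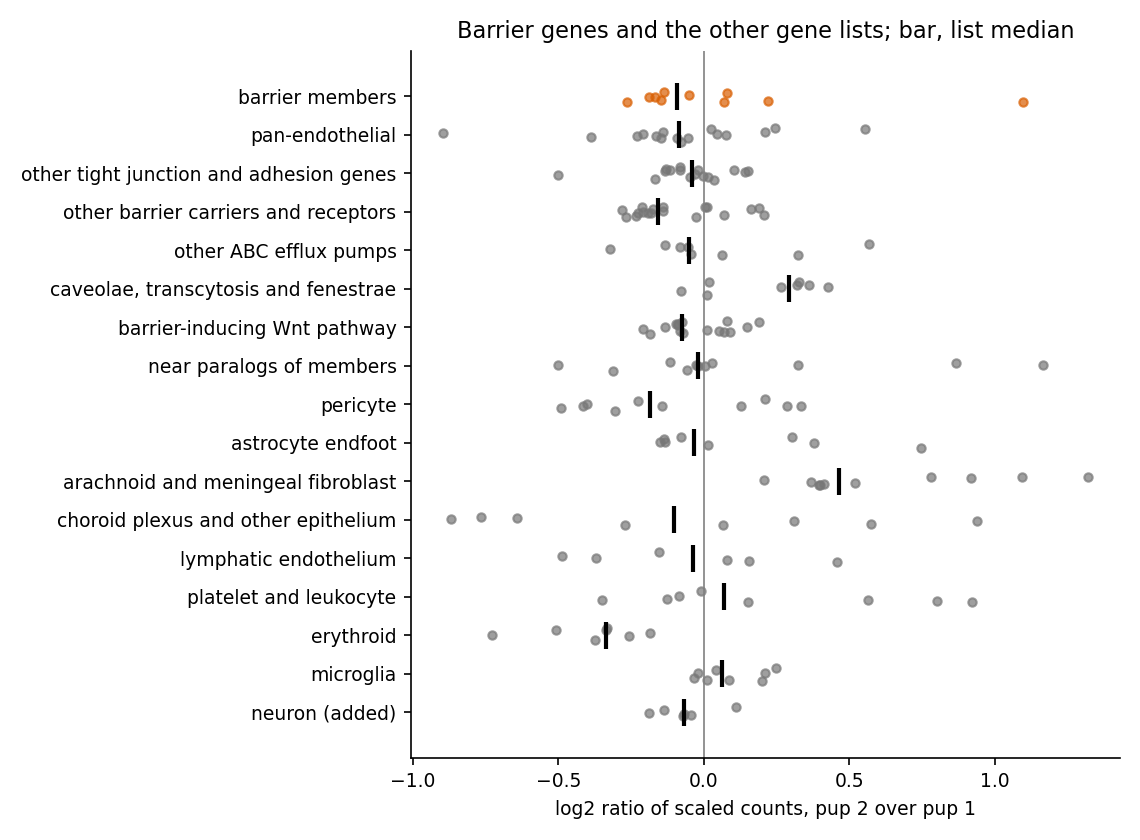
Log2 ratio of scaled counts, pup 2 over pup 1, of every gene whose mean count reached 10, in rows for the 10 barrier genes at the top and the other gene lists below, with a black bar at each list's median. The barrier genes scatter about -0.09 with Slco1a4 far to the right, while the arachnoid and meningeal row lies wholly to the right of 0 and the erythroid row wholly to the left.

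The cells and signals that surround barrier endothelium were present in both pups. Genes of the Wnt pathway that induces the barrier were detected for 15 of 16, led by Tspan12, a co-receptor of norrin signalling, at 74.3 TPM in pup 2 and 70.1 in pup 1. Tnfrsf19, a Wnt target gene of brain endothelium, had 17.7 and 19.9 TPM, and the co-receptor gene Lrp5 was lowest at 0.70 and 0.68 TPM. The median log2 ratio of the list was -0.07, and none of its genes was past 1.5-fold.

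All 10 of 10 pericyte genes were detected, with Vtn, vitronectin, at 140 TPM in pup 2 and 112 in pup 1, and the adhesion gene Mcam, which endothelium makes too, at 13.8 and 12.7 TPM. Abcc9, a channel subunit of pericytes, was lowest at 1.18 TPM in pup 2 and 1.74 in pup 1, and the list's median log2 ratio was -0.19. TPM intervals did not overlap for 5 of the 10 with the lower value in pup 2, Pdgfrb, Rgs5, Kcnj8, Abcc9 and Cspg4. The share over all genes was 12.4%. For 1, Vtn, the higher value was in pup 2, against 6.26% of all genes. All 10 had mean counts above 100, and for such genes the share by direction was not computed. Of the astrocyte endfoot genes 8 of 8 were detected, with Gfap highest, the gap junction gene Gja1 at 190 TPM in pup 2 and 153 in pup 1, and the potassium channel gene Kcnj10 lowest at 6.18 and 7.11 TPM. The median log2 ratio of that list was -0.03.

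Cell types other than vessel endothelium that make some of the 10 genes were measured as well. Ocln and Tjp1 are also made by epithelia, and of 8 genes of the choroid plexus and other epithelia 5 were detected in both pups. The highest were Krt19, a keratin, at 5.06 TPM in pup 2 and 4.15 in pup 1, and Cdh1, E-cadherin, at 4.77 and 2.73 TPM, while Krt8 was lowest at 0.40 and 0.75. Ttr, the defining choroid plexus gene, was near 0 at 0.57 TPM in pup 2 and 0.98 in pup 1, and Folr1 was at 0.94 and 2.09. The list summed to 16.0 TPM in pup 2 and 15.0 in pup 1.

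Of 6 lymphatic endothelial genes, 4 were detected in both pups. Reln, which neurons also make, led at 31.3 TPM in pup 2 and 41.5 in pup 1, followed by Pdpn at 24.3 and 22.7, with Flt4 at 0.78 and 1.16 TPM and Ccl21a lowest at 0.73 and 0.54. Microglial genes were detected for 8 of 8, with C1qb at 95.4 TPM in pup 2 and 84.2 in pup 1, and Tmem119 lowest at 12.4 and 13.0. No gene of any list was at 0 in both pups. The part of any of these cell types in the levels of the 10 genes was not tested.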

How the data were processed

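Total RNA libraries of 2 newborn neural tubes, pup 2 and pup 1, were used as deposited. Per the labels, RNA above 200 nt was kept and 10 ng entered each library. Per the file headers, the authors' tables hold expected counts (estimates that can be fractions), TPM and posterior mean TPM per gene and transcript. The deposited TPM bounds were treated as a score, since no source used here states their level. The deposited percent column divides the TPM of a gene among its transcripts. Build mm10 and GENCODE M4 are named in the deposited notes, and the column names are those RSEM writes. Strand setting, aligner and RSEM release were not given in the sources used here. Without the strand, reads of overlapping genes on opposite strands could be mixed.

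Gene symbols, coordinates and exons came from GENCODE M21 on GRCm38, matched on ID without version, and promoters from RefSeq (GRCm38.p6). The erythroid gene Ahsp matched no row. Rows for tRNAs and spike-ins were left out. Expected counts were rounded, and scaled by TMM factors in edgeR 4.0.16 (R 4.3.3) over genes whose mean count reached 10, with a prior count of 2 in log2 ratios. DESeq2 1.42.0 gave alternative size factors. Counting intervals were exact binomial at 95%. Python 3.11.15 with pandas 2.3.3, scipy 1.17.1 and matplotlib 3.10.9 did the rest. The scaling and log2 ratio step was tested on simulated counts with known folds. The library depths, 40003490 and 26916914 counts, limit the precision of the scarce genes.

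The 10 genes and the lists were chosen with earlier results of these data known. All 10 were named, and of each other list the 2 highest by mean TPM, the lowest and any gene at a TPM of 1 in exactly 1 pup, with transcripts of at least 10% and near paralogs. A few genes that this rule takes are not reported here. Promoters were those of the highest gene and of the largest ratio. The Abcg2 promoters, the exons, the 6 neuron genes, and a few further genes and transcripts were chosen after seeing the data. Alternatives were other scalings, prior counts, thresholds, count filters and level estimates, and leaving out either pup. With 1 library per pup and 1 group no test was made, and no measure of likeness between genes was computed over 2 libraries.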

Additional observations from a re-analysis of the deposited data

How the results depend on the processing

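Scaling of deposited TPM to the 8 endothelial genes gave a median log2 ratio of 0.17 over the 10 genes. Deposited TPM alone gave -0.13, and TMM-scaled counts gave -0.09. Ocln (0.03), Tjp1 (0.16), Pecam1 (0.18), Slc2a1 (0.072) and Mfsd2a (0.087) turned positive. Without Erg in that scale, an alternative chosen after seeing the data, the median was 0.036 and only Tjp1 (0.026) and Pecam1 (0.046) did. DESeq2 size factors, library totals, deposited TPM, a prior count of 0.5, posterior mean counts, no filter and a mean count of 100 reversed the sign of none of the 10, with Cdh5 equal in both pups by deposited TPM. With the mean count filter at 100, 0 genes were past 1.5-fold, because Slco1a4 falls under that filter. The median level per endothelial level, 1.12 as the mean of both pups, was 0.870 against all 16 pan-endothelial genes, 0.878 without Erg and 1.52 on expected counts, and ranged over 1.06 to 1.19 with either pup left out. The number of genes detected in both pups, 9, was 9 to 10 with either pup left out. The posterior mean TPM moved Abcb1a to a mean of 5.0 TPM from 3.375. With Poisson intervals of counts, 4 genes were apart, Slco1a4 added, against 23.9% of all genes. Leaving out mitochondrial and 7SL RNA genes multiplied every TPM by 1.12 in pup 2 and 1.11 in pup 1. No paired analysis was possible because the series has 1 group. Depth limits Slco1a4, with 44.6 expected counts in pup 1, and the transcripts of Ocln, Pecam1 and Abcb1a.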
